A study of Mus musculus with 8 samples.

Results

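The circadian clock genes of the mouse heart were followed in 8 RNA sequencing libraries, 4 from hearts transduced with a vector for Fgf17 and 4 from hearts transduced with its control vector. The members were chosen by gene name: Arntl, Clock, Per1, Per2, Per3, Nr1d1, Nr1d2, Dbp, Tef and Ciart. Of these 10 genes, 9 had values among the 11704 genes listed and all 9 passed the filter on low values, which left 10025 genes for testing. Arntl was not analysed here. Mice of the AAV-FGF17 group were injected subcutaneously as newborns with a serotype 9 adeno-associated virus (AAV) for mouse Fgf17, the gene of a secreted growth factor of the FGF family. Control mice received the control vector in its place. Hearts of both groups were taken at an age of 8 to 10 weeks. Each library is called a heart below, though the labels do not say that each came from a separate animal. Strain, sex, the promoter of the vector and the time of day of collection are not given in the sources used here. The deposited columns carry the word sham and the sample labels do not mention surgery, so whether the animals were operated on is unknown.

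The clock of a mammalian cell is a feedback loop of transcription. CLOCK pairs with BMAL1, the product of Arntl, binds E-box sequences and switches on Per, Nr1d and Ciart genes, whose products then act back on that loop, and the PAR leucine zipper factors DBP and TEF carry the rhythm on to genes with D-box sequences. In the rodent heart this loop runs in the cardiomyocytes, where Arntl transcripts peak at a time of day opposite to that of Dbp and the Per genes, and it is known to time metabolism and ion channel expression.

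The sequences that tie the members to each other lie in their promoters. In RefSeq windows of 300 bases on GRCm38.p6, from 250 bases before to 50 bases after a transcript start, 14 windows of 9 members were found. These 9 include Arntl, and Per2 had no window and was not searched. Searched on both strands, the E-box CACGTG was present in 4 of the 14 windows, of 3 members (Ciart, Per1 and Tef), and in 7.15% of all 32851 windows. The related E'-box CACGTT was present in 1 of the 14 windows (Nr1d1) and 4.68% of all windows, and the D-box TTATGNAA, with N for any base, in 2 of the 14 windows (Per1 and Per3) and 3.38% of all windows. The element of the REV-ERB receptors (A, any pair of bases, T, any base, then GGTCA) was found in 1 of the 14 windows (Arntl) and 2.46% of all windows, and the cyclic AMP element TGACGTCA in 0 of the 14 windows and 1.79% of windows. These matches describe the letters of the windows and are not evidence of binding. The sites of the 5 members that have values are shown because they are the letters through which CLOCK, DBP and TEF are known to act. Each is 30 bases read 5′ to 3′ on the strand of the gene, with the motif in capitals.
Ciart E-box at chr3:95882327-95882356, minus strand: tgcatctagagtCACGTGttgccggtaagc
Ciart E-box at chr3:95882269-95882298, minus strand: cgcagggggaggCACGTGcagaaccgcacg
Ciart E-box at chr3:95882255-95882284, minus strand: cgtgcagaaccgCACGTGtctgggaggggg
Per1 E-box at chr11:69098771-69098800, plus strand: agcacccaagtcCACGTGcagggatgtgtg
Tef E-box at chr15:81802534-81802563, plus strand: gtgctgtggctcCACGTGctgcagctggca
Tef E-box of a second start at chr15:81811264-81811293, plus strand: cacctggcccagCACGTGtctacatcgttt
Nr1d1 E'-box, on the opposite strand, at chr11:98775388-98775417, minus strand: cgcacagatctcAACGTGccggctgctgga
Per1 D-box at chr11:69098914-69098943, plus strand: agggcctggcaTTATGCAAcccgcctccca
Per3 D-box at chr4:151044852-151044881, minus strand: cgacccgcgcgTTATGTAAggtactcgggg
Per3 D-box at chr4:151044805-151044834, minus strand: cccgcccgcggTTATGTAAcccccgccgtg

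The unit is FPKM, in which fragments are divided by transcript length and by the mapped total, and read depth is unknown. As a check of the labels, Fgf17 ranged between 69.0 and 173 FPKM in AAV-FGF17 hearts, against 9.59, 1.43, 0.560 and 9.86 FPKM in control libraries 1 to 4, with no overlap (limma adjusted p = 0.248). The heart muscle genes Myh6 and Tnnt2 measured at least 2316 and 881 FPKM in every library. Of 53 marker genes of 10 cell types, 50 had values and 0 of these were at 0 in any library. Control libraries 2 and 3, the 2 with the lowest Fgf17, stood apart from the others. Mitochondrially encoded genes made up 62.8% to 66.9% of summed FPKM in AAV-FGF17 libraries, 64.0% and 64.1% in control libraries 1 and 4, and 44.5% and 30.9% in control libraries 2 and 3. The first principal component, with 49.7% of the variance, placed these 2 libraries at 22.0 and 44.6 and the other 6 between -19.4 and -7.55. Control libraries 1 and 4 were the most alike of 28 pairs, their log2 ratios having a robust SD of 0.0646, against 0.108 in the next pair. Summed marker levels did not overlap between the groups for endothelial cells (81.5 to 108 FPKM in AAV-FGF17 hearts, 110 to 143 in control hearts), brown adipocytes (60.9 to 85.5 against 98.8 to 109) and fibroblasts (139 to 171 against 117 to 135). These sums are FPKM without rescaling. Median-of-ratios size factors were 1.11 and 1.18 in control libraries 2 and 3 and 0.874 to 0.992 in the other 6. The endothelial and brown adipocyte gaps, with controls higher, therefore depend on the scaling, while the fibroblast gap runs the other way. Single markers had the higher mean in AAV-FGF17 hearts in 0 of 4 endothelial, 1 of 4 brown adipocyte and 4 of 5 fibroblast genes. The part of these markers' cell types in the clock values was not tested. The median log2 change over tested genes was -0.12, so log2 changes are given relative to the median gene, and p-values test the change as fitted. In bulk tissue, fewer cells of a type and less RNA per cell cannot be told apart.

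None of the 9 clock genes differed between AAV-FGF17 and control hearts beyond the spread between hearts. With limma over all tested genes and Benjamini-Hochberg adjustment, 0 of 9 members were called at 0.05, with adjusted p-values between 0.497 and 0.917, and 0 were called at an unadjusted p of 0.05. Of all tested genes 0% were called higher and 0% lower, 9.34% had an unadjusted p under 0.05, and the groups did not overlap in 5.64%, 0.998% higher and 4.64% lower. Fgf17 itself was not called in this fit (limma adjusted p = 0.248), so the lack of calls alone does not show that the members were unchanged. The groups overlapped in all 9 members. Relative to the median gene, 5 members lay above 0 and 4 below it, with a median of 0.03 and values from -0.22 for Tef to 0.27 for Ciart. The 95% intervals of the 9 members ran from -0.66 to 0.59, so on the log2(FPKM + 1) scale they reached no further than 1.58-fold lower and 1.51-fold higher. Those are folds of FPKM + 1, and folds of FPKM itself can be larger for low genes such as Ciart and Clock. Without control libraries 2 and 3, 0 of 9 members were called as well. The groups separated in 1 of 9 members there (Clock), against 15.8% of the 9852 genes tested with 4 AAV-FGF17 and 2 control libraries.

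**Figure D1:**
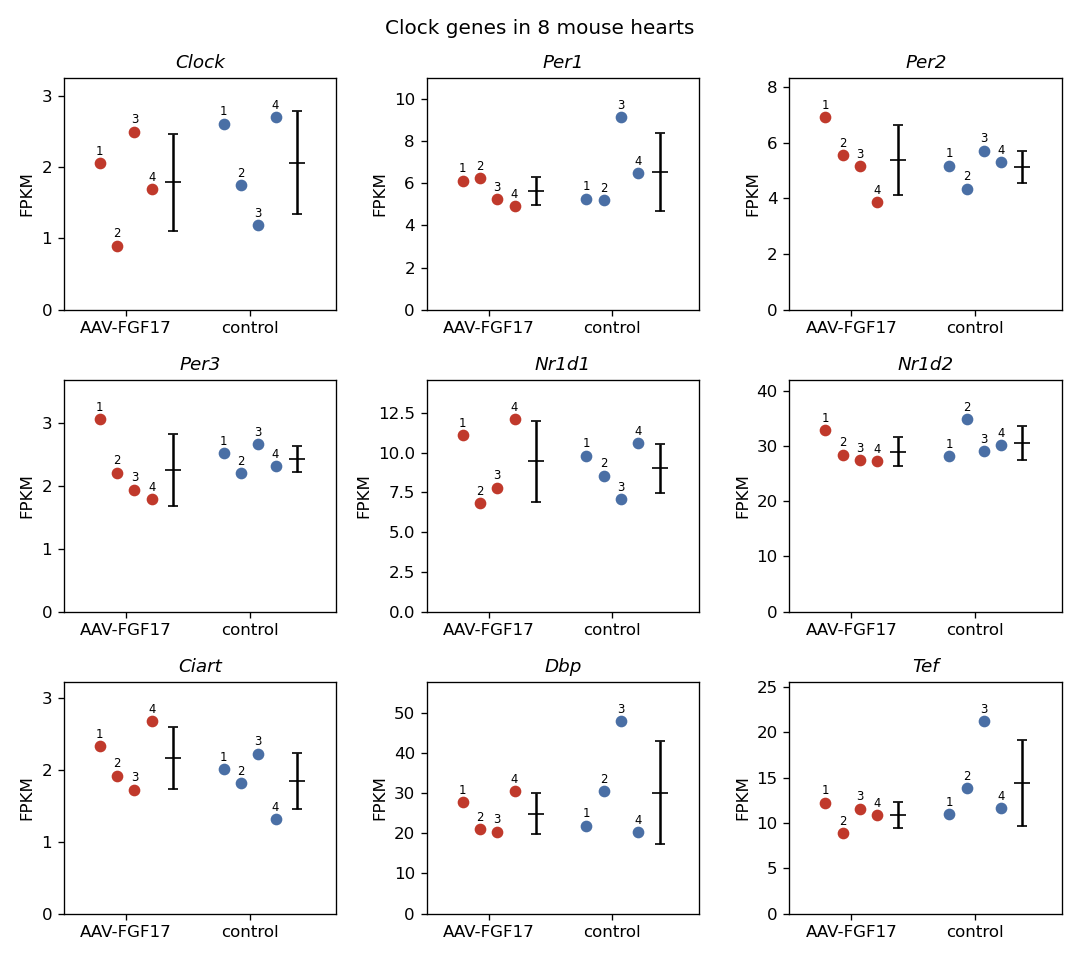
FPKM of 9 clock genes on linear axes from 0, with a point per library numbered by replicate, AAV-FGF17 hearts left of control hearts, and a bar for the mean ± SD (n = 4 each). The groups overlap in every panel, and control library 3 has the highest Per1, Dbp and Tef.

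Clock encodes the DNA-binding partner of BMAL1 and was the only member of the activating limb with values. It lies on chromosome 5 at 76209868 to 76304792 of GRCm38, minus strand (ENSMUSG00000029238.11). AAV-FGF17 libraries 1 to 4 had 2.06, 0.895, 2.50 and 1.69 FPKM of Clock, against 2.61, 1.75, 1.18 and 2.70 FPKM in control libraries 1 to 4. The lowest values were in AAV-FGF17 library 2 and control library 3, so each group held 1 low library. Clock averaged 1.78 ± 0.678 FPKM in AAV-FGF17 hearts and 2.06 ± 0.725 FPKM in control hearts (SD, n = 4 each). Its log2 change was -0.02 ± 0.22 (SE, 95% interval -0.52 to 0.48, limma adjusted p = 0.770). Without control libraries 2 and 3 that change was -0.41 and still missed the threshold, and it turned to between 0.10 and 0.12 without AAV-FGF17 library 2, control library 1 or control library 4. Clock was the most variable member between hearts of a group, with a within-group SD of 0.40 on the log2 scale, higher than that of 90.4% of tested genes.

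The period genes encode the proteins that enter the nucleus with cryptochromes and silence CLOCK and BMAL1. Per1 (chromosome 11, 69095217 to 69109960, plus strand), which also responds directly to hormones and cyclic AMP, had 6.14, 6.25, 5.25 and 4.92 FPKM in AAV-FGF17 libraries 1 to 4 and 5.28, 5.21, 9.17 and 6.49 FPKM in control libraries 1 to 4. Control library 3 was the highest of all 8, and the other 3 controls lay in or close to the AAV-FGF17 range. Its log2 change was -0.04 ± 0.17 (SE, limma adjusted p = 0.654), and 0.071 without control library 3.
Per2 (chromosome 1, 91415982 to 91459324, minus strand), the period gene with the strongest part in rhythm in mice, had 6.93, 5.56, 5.16 and 3.86 FPKM in AAV-FGF17 hearts and 5.18, 4.36, 5.72 and 5.30 FPKM in control hearts. Both the highest and the lowest Per2 value came from the AAV-FGF17 group. Its log2 change was 0.16 ± 0.16 (SE, limma adjusted p = 0.912). That of Per2 was 0.055 without AAV-FGF17 library 1, 0.071 without control library 2, 0.28 without AAV-FGF17 library 4 and 0.031 without control libraries 2 and 3.
Per3 (chromosome 4, 151003652 to 151044665, minus strand) had 3.06, 2.20, 1.94 and 1.79 FPKM in AAV-FGF17 hearts and 2.51, 2.20, 2.66 and 2.31 FPKM in control hearts. The AAV-FGF17 hearts again held both ends of the range, and their order was that of Per2. The log2 change of Per3 was 0.03 ± 0.14 (SE, limma adjusted p = 0.755).

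The REV-ERB receptors, encoded by Nr1d1 and Nr1d2, bind haem and repress Arntl. Nr1d1 (chromosome 11, 98767932 to 98775333, minus strand) had 11.1, 6.82, 7.81 and 12.1 FPKM in AAV-FGF17 libraries 1 to 4, against 9.82, 8.56, 7.08 and 10.6 FPKM in control libraries 1 to 4. Both the highest and the lowest heart were AAV-FGF17 hearts, and the controls lay inside their range. Nr1d1 averaged 9.47 ± 2.55 FPKM in AAV-FGF17 hearts and 9.02 ± 1.55 FPKM in control hearts (SD, n = 4 each), with a log2 change of 0.16 ± 0.19 (SE, limma adjusted p = 0.917), or -0.11 without control libraries 2 and 3.
Nr1d2 (chromosome 14, 18204054 to 18239127, minus strand), the relative that acts in parallel, had 32.9, 28.5, 27.5 and 27.2 FPKM in AAV-FGF17 hearts and 28.2, 34.9, 29.1 and 30.1 FPKM in control hearts. It was the steadiest member, with the highest library 1.28-fold above the lowest and a within-group SD above that of 20.96% of tested genes. Its log2 change was 0.05 ± 0.11 (SE, 95% interval -0.20 to 0.29, limma adjusted p = 0.759).
Ciart (chromosome 3, 95878503 to 95882251, minus strand), also called Chrono, encodes a repressor that binds BMAL1. It had 2.32, 1.92, 1.72 and 2.68 FPKM in AAV-FGF17 hearts and 2.01, 1.82, 2.22 and 1.31 FPKM in control hearts. The lowest heart was a control and the 2 highest were AAV-FGF17 hearts, and the others were interleaved. Ciart had the largest positive log2 change of the members, 0.27 ± 0.14 (SE, 95% interval -0.05 to 0.59, limma adjusted p = 0.612). Over the alternatives tried, the limma adjusted p of Ciart ranged from 0.517 to 0.931.

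Dbp and Tef encode the PAR leucine zipper factors that act on D-boxes, and Dbp is the classic readout of CLOCK and BMAL1 activity. Dbp (chromosome 7, 45705088 to 45710203, plus strand) had 27.8, 21.004, 20.4 and 30.5 FPKM in AAV-FGF17 libraries 1 to 4, against 21.9, 30.5, 48.0 and 20.2 FPKM in control libraries 1 to 4. Control library 3 lay above all others, and the lowest AAV-FGF17 and control values were nearly equal. Dbp averaged 24.9 ± 5.01 FPKM in AAV-FGF17 hearts and 30.1 ± 12.7 FPKM in control hearts (SD, n = 4 each). Its log2 change was -0.09 ± 0.26 (SE, 95% interval -0.66 to 0.49, limma adjusted p = 0.704), and it turned to 0.23 without control libraries 2 and 3 to 0.12 without control library 3 alone and to 0.015 without AAV-FGF17 library 3.
Tef (chromosome 15, 81802421 to 81826861, plus strand) had 12.2, 8.85, 11.6 and 10.9 FPKM in AAV-FGF17 hearts and 10.96, 13.9, 21.3 and 11.6 FPKM in control hearts. As with Dbp, control library 3 was highest, and AAV-FGF17 library 2 was lowest. The log2 change of Tef was -0.22 ± 0.20 (SE, limma adjusted p = 0.497), the smallest adjusted p of the members, and -0.03 without control libraries 2 and 3. In control library 3, where Dbp and Tef were highest, the summed level of 8 cardiomyocyte markers was 18875 FPKM, against 8323 to 9002 FPKM in AAV-FGF17 hearts and 8239 to 13295 FPKM in the other controls. The part of that library's make-up in its clock values was not tested. After median-of-ratios scaling, Dbp in control library 3 stood at 40.7 and Tef at 18.0, still the highest of the 8 libraries.

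**Figure D2:**
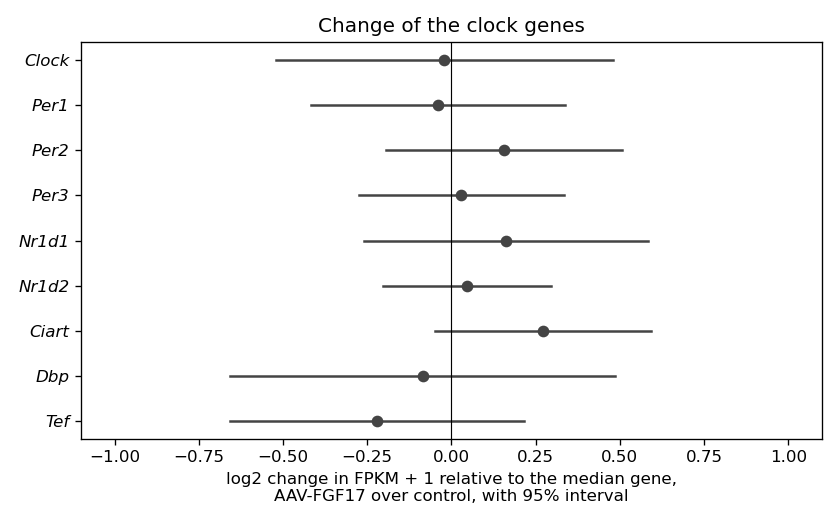
Log2 change of FPKM + 1 of 9 clock genes relative to the median gene, AAV-FGF17 over control, as points with 95% intervals from limma (n = 4 each). All 9 intervals cross 0, with Ciart farthest to the right at 0.27 and Tef farthest to the left at -0.22.

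As levels per transcript length, averaged over the 8 libraries, the members ran in the order Nr1d2 at 29.8, Dbp at 27.5, Tef at 12.7, Nr1d1 at 9.24, Per1 at 6.09, Per2 at 5.26, Per3 at 2.34, Ciart at 2.001 and Clock at 1.92 FPKM. Only between Per2 and Per3 did the ranges of neighbours not overlap over the 8 libraries. Nr1d2 was above Dbp in 6 of 8 libraries, Dbp above Tef in 8, and Ciart above Clock in 5, so Ciart and Clock could not be placed in order. Of the 9 members, 6 varied more within groups than the median tested gene, whose within-group SD was 0.20. Clock, Dbp and Nr1d1 led with log2 SDs of 0.40, 0.37 and 0.33, and Per3, Ciart and Nr1d2 lay below the median gene.

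The phase relation asks whether hearts with more of the activating limb had less of the repressors and outputs, as at different times of day. With Arntl not analysed here, Clock was set against the 8 other members over the 8 libraries, on log2 values with each library centred on its median gene. Clock was a low gene, at the 18.5th percentile of level among tested genes, and the most variable member. Its correlations alone therefore cannot settle the phase of the hearts. Of the 8 correlations, 4 were negative and 4 positive, with a median r of -0.03, and 0 passed after Benjamini-Hochberg adjustment over the 8 pairs (smallest adjusted p = 0.376, two-sided exact permutation). Clock and Dbp ran most against each other, with Pearson r = -0.70 (exact permutation p = 0.0487, adjusted p = 0.376) and Spearman rho = -0.71 (exact permutation p = 0.0576, adjusted p = 0.460). Control library 3 had the least Clock and the most Dbp, at -0.56 and 0.66 relative to their means, and control libraries 1 and 4 and AAV-FGF17 library 3 had the reverse. AAV-FGF17 library 2 was low in both, and AAV-FGF17 library 1 was slightly above the mean in both. Leaving out the 2 libraries with the most extreme Clock values, control 3 and AAV-FGF17 2, gave r = -0.85 for Clock with Dbp. Without AAV-FGF17 library 2 alone r was -0.94 (exact permutation p = 0.00437, adjusted p = 0.0349), without control library 3 alone it was -0.46, and without control libraries 2 and 3 it was -0.39. The permutations treat the libraries as independent, and control libraries 1 and 4, the most alike of 28 pairs, both had high Clock and low Dbp.

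Nr1d1, like Dbp a known direct target of CLOCK and BMAL1, had a positive correlation with Clock, r = 0.64 (exact permutation p = 0.0940, adjusted p = 0.376) and rho = 0.62 (exact permutation p = 0.115, adjusted p = 0.460). Without the same 2 extreme libraries that r was 0.09, so the relation of Clock with Nr1d1 rests on them. The remaining 6 correlations with Clock lay between -0.45 for Per1 and 0.20 for Nr1d2, with exact permutation p-values of at least 0.253. Clock with Tef had r = -0.42 over all libraries, 0.45 without control library 3 and 0.76 without control libraries 2 and 3. Clock with Per1 turned to 0.65 without the 2 extreme libraries.

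**Figure D3:**
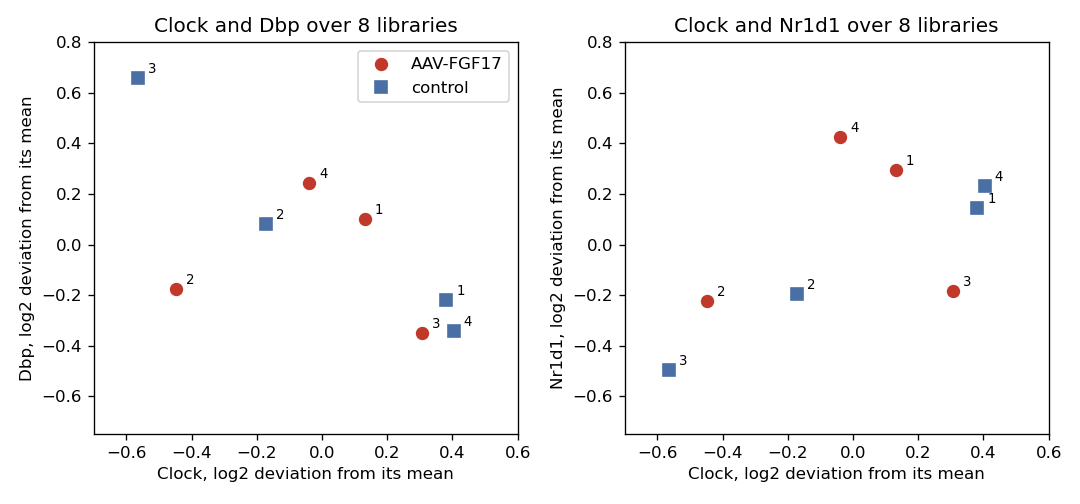
Clock against Dbp (left) and Nr1d1 (right) in 8 libraries, each as log2 deviation from the gene's mean after centring libraries on the median gene, numbered by replicate, with AAV-FGF17 hearts as circles and control hearts as squares. Dbp falls as Clock rises with r = -0.70, AAV-FGF17 library 2 lying apart at the lower left, and Nr1d1 runs with Clock at r = 0.64, with control library 3 at the lower left.

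Among the 8 repressor and output genes themselves, 28 pairs were compared over the 8 libraries. Of these, 12 were negative and 0 passed after adjustment over the 28, with a median r of 0.10. Per2 and Per3 were the closest pair, with r = 0.89 (exact permutation p = 0.00211, adjusted p = 0.0590) and rho = 0.88 (exact permutation p = 0.00724, adjusted p = 0.203), and r = 0.77 without the 2 most extreme libraries. Dbp and Tef followed with r = 0.77 (exact permutation p = 0.0386, adjusted p = 0.541) and rho = 0.33 (exact permutation p = 0.428), and r fell to 0.32 without control library 3 and AAV-FGF17 library 3. Dbp and Nr1d1 had r = -0.28 (exact permutation p = 0.507, adjusted p = 0.835). By library, AAV-FGF17 library 1 had all 8 of these genes above their own means, by 0.02 for Tef to 0.39 for Per2, and AAV-FGF17 library 3 had 1 of 8. Control library 3 split them, with Dbp, Tef and Per1 at 0.66, 0.57 and 0.36 above their means and Nr1d1 and Nr1d2 at -0.50 and -0.21. Averaged over the 8 genes, the libraries spanned -0.14 to 0.20 in AAV-FGF17 hearts and -0.12 to 0.09 in control hearts.

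**Figure D4:**
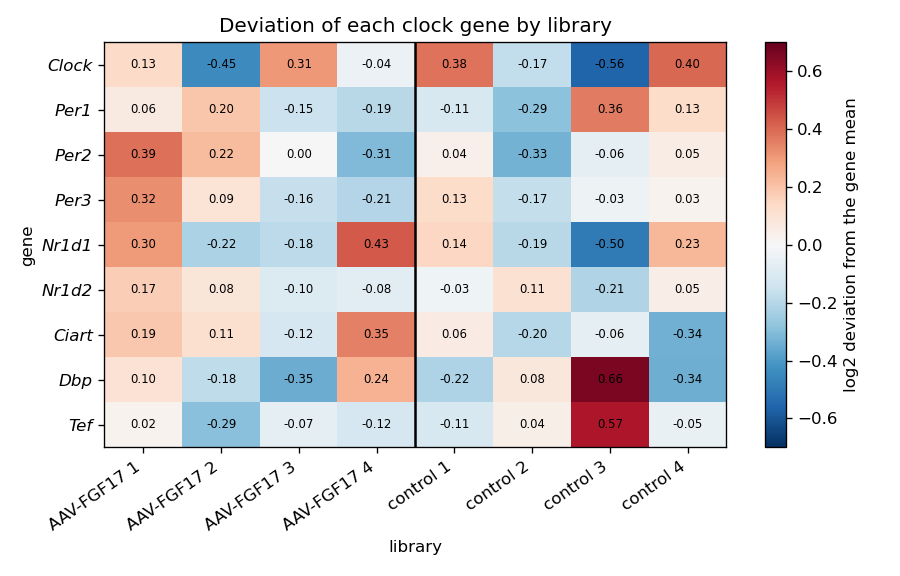
Log2 deviation of each clock gene from its own mean in each library, after centring libraries on the median gene, AAV-FGF17 libraries left of the line and control libraries right of it. Control library 3 has high Dbp (0.66) and Tef (0.57) with low Clock (-0.56) and Nr1d1 (-0.50), and AAV-FGF17 library 1 is above the mean in all 9 genes.

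The other genes of the loop were read from a list of 11, of which 9 were tested and 0 were called in either direction, with a median of -0.05. Cry2, a cryptochrome that represses CLOCK and BMAL1, had 3.90, 3.56, 4.68 and 3.36 FPKM in AAV-FGF17 hearts and 4.25, 6.83, 9.37 and 5.17 FPKM in control hearts. The highest AAV-FGF17 heart lay above the lowest control, and control libraries 2 and 3 were the highest. Its log2 change was -0.44 ± 0.20 (SE, limma adjusted p = 0.495), or -0.21 without control libraries 2 and 3. Nfil3, a repressor at D-boxes, averaged 3.28 ± 0.906 FPKM in AAV-FGF17 hearts, against 3.76 ± 0.680 in control hearts (SD, n = 4 each), and Bhlhe41, a repressor at E-boxes, 7.12 ± 0.645 against 7.88 ± 0.880 FPKM. The log2 changes of Nfil3 and Bhlhe41 were -0.05 and -0.01, and that of Bhlhe41 was 0.0012 after median-of-ratios scaling.

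Of 13 kinases, ubiquitin ligases and other regulators that set the stability of clock proteins, 11 were tested and 0 were called in either direction, with a median of 0.11 that became -0.03 without control libraries 2 and 3. Csnk1d and Csnk1e, the casein kinases that phosphorylate PER, stood at 6.07 ± 0.412 and 8.84 ± 0.630 FPKM in AAV-FGF17 hearts and at 7.34 ± 1.76 and 9.70 ± 1.87 FPKM in control hearts (SD, n = 4 each). Csnk2b, a regulatory subunit of casein kinase 2, stood at 28.9 ± 1.80 against 24.5 ± 5.60 FPKM, and Fbxw11, a ubiquitin ligase subunit that acts on PER, at 7.09 ± 0.873 against 7.46 ± 0.305 FPKM. The log2 change of Csnk2b was the largest of these 4, at 0.37 ± 0.15 (SE, limma adjusted p = 0.507).

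Of 16 genes downstream of the clock, 15 were tested, 0 were called in either direction and their median was 0.05. Hsd11b1, which regenerates active glucocorticoid inside cells, was the only gene of the list whose groups did not overlap. In either direction this held for 5.64% of all tested genes, so 1 of 15 is near the share of all genes. It had 2.89, 3.44, 3.73 and 3.37 FPKM in AAV-FGF17 hearts and 1.85, 2.48, 2.56 and 1.83 FPKM in control hearts. Each AAV-FGF17 heart exceeded each control, the direction of 0.998% of tested genes. The log2 change of Hsd11b1 was 0.58 ± 0.13 (SE, limma adjusted p = 0.495), and 0.63 without control libraries 2 and 3. Por, the electron donor of cytochrome P450 enzymes, averaged 9.62 ± 1.56 FPKM in AAV-FGF17 hearts, against 13.7 ± 3.09 in control hearts (SD, n = 4 each, log2 change -0.34, or -0.22 without control libraries 2 and 3). Tcap, a Z-disc protein whose gene is a CLOCK target in mouse heart, had 528 to 614 FPKM in AAV-FGF17 hearts, against 525 to 2365 in control hearts, and its log2 change of -0.58 turned to 0.11 without those libraries. Dgat2, an enzyme of triglyceride synthesis, stood at 41.2 ± 2.39 against 51.3 ± 13.5 FPKM, and its log2 change of -0.16 turned to 0.07 there.

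Signals that set clocks of peripheral organs were read from 16 genes of glucocorticoid and temperature response, all tested, with 0 called in either direction and a median of 0.0023. Fkbp5, a glucocorticoid-induced chaperone, averaged 6.79 ± 0.772 FPKM in AAV-FGF17 hearts, against 9.51 ± 2.87 in control hearts (SD, n = 4 each). Sgk1 and Ddit4, which glucocorticoids also induce, lay the other way, at 14.7 ± 2.69 and 22.1 ± 5.79 FPKM in AAV-FGF17 hearts and 10.9 ± 2.33 and 15.0 ± 4.14 FPKM in control hearts. Cirbp, an RNA-binding protein gene raised by cold, had 7.54, 6.76, 9.83 and 6.23 FPKM in AAV-FGF17 hearts and 8.64, 13.9, 21.1 and 7.90 FPKM in control hearts. Control libraries 2 and 3 held the 2 highest Cirbp values, and its log2 change of -0.49 was -0.11 without them. Without these libraries the log2 changes of Fkbp5, Sgk1 and Ddit4 were -0.03, 0.18 and 0.37, against -0.28, 0.53 and 0.67 with them.

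Of 12 cyclic AMP and early response genes, the class that Per1 shares, 9 were tested and 0 were called in either direction, with a median of 0.11. Junb and Ier2, early response genes, stood at 2.14 ± 0.668 and 4.15 ± 0.959 FPKM in AAV-FGF17 hearts and at 2.83 ± 1.29 and 6.90 ± 4.43 FPKM in control hearts (SD, n = 4 each). Sik1, a kinase induced by cyclic AMP, stood at 8.22 ± 1.52 against 7.25 ± 0.639 FPKM, and Crem, a cyclic AMP response modulator, at 1.24 ± 0.127 against 1.12 ± 0.227 FPKM. Control library 3 was the highest for Ier2, at 13.5 FPKM, as it was for Per1. Without control libraries 2 and 3 the log2 changes of Sik1, Crem and Ier2 were 0.08, 0.03 and -0.09, against 0.27, 0.20 and -0.38 with them.

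Genes whose pattern was most like the mean standardised profile of the 8 repressor and output genes were picked by Pearson r over the 8 libraries, as a description. Because the picks are the extremes among 10025 genes over 8 points, high values of r follow from that choice. The highest were Secisbp2 (r = 0.89), Noc4l (0.88), Bex2 (0.88), Cdk4 (0.88), Irs2 (0.88), Ehd3 (0.88), Rbm15b (0.87) and Sumo3 (0.87). Secisbp2, a factor for selenoprotein synthesis, had 4.56, 3.62, 3.89 and 3.64 FPKM in AAV-FGF17 hearts and 3.89, 4.04, 5.05 and 3.93 FPKM in control hearts, with its peaks in AAV-FGF17 library 1 and control library 3. The lowest were Fkbp1a (r = -0.90), Plekha8 (-0.89), Dusp22 (-0.89), Aco1 (-0.88), Cd14 (-0.86), Kdr (-0.85), Mgl2 (-0.85) and Dusp12 (-0.83). Fkbp1a, which encodes a peptidyl-prolyl isomerase, had 9.88, 10.6, 28.5 and 19.0 FPKM in AAV-FGF17 hearts and 18.0, 31.4, 18.6 and 14.3 FPKM in control hearts. Without centring, the r of the lower 8 ranged from -0.33 for Kdr to 0.03 for Aco1, and that of the upper 8 from 0.68 for Sumo3 to 0.93 for Rbm15b. With centring, the 8 members themselves had r from 0.19 for Tef to 0.84 for Per3 with their mean profile, of which each is a part.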

How the data were processed

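Heart tissue was profiled as total RNA extracted with Trizol, 4 libraries per group. HISAT2 2.1.0, StringTie 1.3.3, cutadapt 1.17, FastQC 0.11.7 and the GRCm38 build are named in the submitters' processing notes, without settings. The deposited values are FPKM, per the file headers, of 11704 protein-coding genes, in each of which the larger group mean was at least 0.501 FPKM, and 1 emptied line was left out. Because FPKM divides by the library total, nuclear genes read higher where mitochondrial transcripts take a smaller share. Depth is unknown: in 0 of 8 libraries did low FPKM of 1032 single-transcript genes fall on whole-read steps (score over that of jittered values by more than 0.05). Precision therefore comes from the spread between samples, which the labels do not describe as separate animals, so p-values measure that spread only.

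Columns were matched to samples by name and title, with 0 left unassigned. The 10025 genes averaging 1 FPKM or more were tested as log2(FPKM + 1), which understates changes of low genes, with limma 3.58.1 in R 4.3.3 (trend on the mean, no covariates, Benjamini-Hochberg at 0.05). The fit was also run on simulated data with independent noise, which lack the shift of control libraries 2 and 3 and the likeness of 1 and 4. Correlations used two-sided exact permutation of library pairings (SciPy 1.17.1), and Arntl pairs that had been planned were not run. The members and lists were chosen with earlier results of these data known. The text names the members, Fgf17, in each of 5 gene lists (other core clock genes, clock kinases and ubiquitin ligases, clock output genes, systemic time cues, cyclic AMP and early response genes) the 4 tested genes of smallest p (1 of them is not reported here), and the 8 genes of highest and 8 of lowest r with the mean clock profile, predicted genes left out. Promoter windows came from RefSeq on GRCm38.p6 and were found for 9 members, all but Per2. Alternatives were a pseudocount of 0.1, no filter, median-of-ratios scaling, rescaling without mitochondrial genes, array quality weights, a replicate block, each library left out, control libraries 2 and 3 left out, and, for the correlations, residuals from group means and no centring. Counting control libraries 1 and 4 as 1 sample, and the alternatives to the spread and to the profile correlations, were chosen after seeing the data.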

Additional observations from a re-analysis of the deposited data

Results flagged for a closer look

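In 90 groups of 4 values (45 named genes in each group), 7 groups held a heart far from its other 3 by Dixon's ratio past its 95% critical value. Chance flags about 1 group in 20 of genes picked without regard to their values. Most of the named genes were picked by p or by r over these same libraries, so the count cannot be set against that share. None of the 7 was a value of a clock gene member. Control library 3 stood above the other 3 controls in Csnk1d (9.95 FPKM, the others 6.26 to 6.75), Ier2 (13.5 FPKM, the others 3.97 to 5.09) and Secisbp2 (5.05 FPKM, the others 3.89 to 4.04). Control library 2 stood below the other controls in Ddit4 (8.81 FPKM, the others 16.3 to 17.4). AAV-FGF17 library 3 stood above its group in Por (11.95 FPKM, the others 8.70 to 8.92), which put it among the controls. AAV-FGF17 library 1 stood above its group in Bex2 (7.04 FPKM, the others 1.202 to 1.576) and Ehd3 (1.47 FPKM, the others 0.754 to 0.818).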

How the results depend on the processing

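No clock gene member was called under any of 16 alternatives, with limma adjusted p from 0.296 to 0.997. Of 144 member values, 124 kept their sign and 20 turned it. Without control libraries 2 and 3, 5 genes of all tested were called higher and 1 lower, and 1 of 9 members (Clock) separated the groups, against 15.8% of the genes tested there. There the log2 change was -0.065 for Per3, -0.11 for Nr1d1, 0.23 for Dbp, -0.060 for Fbxw11, 0.11 for Tcap and 0.067 for Dgat2, all turned. The medians were -0.14 for other core clock genes and -0.032 for clock kinases, and r of Clock was -0.12 with Per2, -0.0086 with Per3, -0.25 with Nr1d2 and 0.76 with Tef. Array quality weights called 4 genes higher and 1 lower and gave -0.0018 for Per3, -0.073 for Nr1d1, 0.16 for Dbp, -0.072 for Fbxw11, 0.033 for Dgat2, and medians of -0.010 for clock kinases and -0.093 for early response genes. Fgf17 passed there (adjusted p = 0.0189), without control libraries 2 and 3 (0.0353) and without control library 1 (0.0369). Bhlhe41 turned to 0.00097 with a pseudocount of 0.1, 0.0012 with median-of-ratios scaling and 0.0037 without mitochondrial genes. With control libraries 1 and 4 as 1 sample, Clock was 0.11, Bhlhe41 0.049 and Csnk1e -0.028. Without centring, r was -0.022 for Clock with Per2 and 0.034 for Aco1. The cause of these turns was not tested.

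Leaving out 1 library at a time gave 0 to 1 genes higher and 0 to 3 lower, 0 to 0 members called, and 0 to 1 Clock pairs past the threshold. Clock ranged from -0.21 to 0.12, Per1 from -0.15 to 0.071, Per2 from 0.055 to 0.28, Nr1d1 from 0.020 to 0.27, Tef from -0.297 to -0.072, Ciart from 0.196 to 0.36, Per3 from -0.074 to 0.096, Nr1d2 from -0.019 to 0.088 and Dbp from -0.21 to 0.12. Nfil3 ranged from -0.21 to 0.038, Bhlhe41 from -0.13 to 0.057, Csnk1e from -0.037 to 0.059, Fbxw11 from -0.026 to 0.0996, Junb from -0.26 to 0.033, Fgf17 from 4.13 to 5.13 and the clock kinase median from -0.0039 to 0.19. The r of Clock ranged from -0.35 to 0.39 with Nr1d2, from -0.94 to -0.46 with Dbp, from -0.83 to 0.45 with Tef and from -0.36 to 0.086 with Ciart. Same-numbered libraries did not deviate together (r from -0.11 to 0.02, own number best in 0 of 4), so the numbers pair nothing. With the replicate block 0 genes were called, as without it, and the smallest adjusted p of a member was 0.516 (Tef). Depth is unknown, so no counting limit can be given for low genes such as Clock and Ciart.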
